A study of Arabidopsis thaliana with 9 samples.

Results

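The transcriptome of wild-type Arabidopsis shoots that had been returned to light after prolonged darkness was described from 3 RNA-seq libraries, taken from a series of 9 libraries that also held the ascorbate-deficient mutants *vtc2* and *vtc3*. The plants were of the Col-0 accession and carried no transgene or T-DNA insertion. They were grown on agar plates with half-strength Murashige and Skoog medium and 1% sucrose under a 16 h photoperiod, and at 2 weeks of age they were kept in darkness for 48 h and then illuminated for 6 h (photon flux, 100 µmol per square metre and second) before the shoots were harvested. The study states that shoots of at least 10 plants were pooled for each replicate of its plate-grown experiments, so each library averages over plants and over all cell types of the shoot. The genes described were the 27328 of 28642 in the table with an annotated exon length above 0. Fewer cells of a type and less RNA per cell cannot be told apart in such material, and shoots kept without the dark treatment were not analysed here, so levels are given relative to other genes of the same shoots and not as a response to light.

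Light drives both the capture of energy and the expression of the genes that build the machinery for it. In the thylakoid membrane, chlorophyll-binding antenna proteins (LHCA and LHCB) pass excitation to photosystems I and II, whose electrons reduce NADP through plastocyanin, ferredoxin and ferredoxin-NADP reductase. The Calvin cycle in the stroma uses this reducing power and ATP to fix carbon dioxide by Rubisco, whose small subunit is encoded in the nucleus by the *RBCS* genes and whose large subunit is encoded in the plastid. Oxygenation by Rubisco feeds photorespiration, and hydrogen peroxide formed there and in the chloroplast is removed by catalases and by ascorbate peroxidases. Genes encoded in the plastid were not analysed here, so the nuclear-encoded subunits alone are described for each complex.

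Abundance is given as RPKM, exon reads per kilobase of exon, scaled to the total of reads assigned to genes in the library. The WT libraries held 5451616, 5070225 and 5853283 gene reads in replicates 1, 2 and 3, and 1 read on a gene of 1 kb corresponded to 0.183, 0.197 and 0.171 RPKM. Replicate 1 stood apart. The mean correlation of its log2(RPKM + 1) values with those of the other 8 libraries was 0.966, against 0.989 to 0.990 for each of the 8 others, over 27328 genes that share annotation and counting. Its summed RPKM was 803692, compared with 679325 in replicate 2 and 679153 in replicate 3, and short genes had higher values in it. Levels are therefore given as the mean of replicates 2 and 3, with both values or with replicate 1 beside them. With 3 libraries of a single genotype there was no comparison between groups to test. Differences between genes are judged by whether their ranges over replicates 2 and 3 overlap. Whether the 3 shoot samples came from separate plates is not given beyond the statement that they were biological triplicates.

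Markers of green shoot tissue were abundant, and those of root and seed were near 0 with a single exception. The 5 mesophyll markers averaged between 1037 RPKM for *GAPA1* and 9301 RPKM for *RBCS1A*. The 4 epidermal markers were led by *PDF1*, a meristem and epidermis layer gene, at 150 RPKM and 169 RPKM in replicates 2 and 3 and 42.1 RPKM in replicate 1. The 5 vascular markers had a median of 5.42 RPKM, and *VND7* was the lowest at 0.861 RPKM. Their highest member was *SUC2*, the sucrose transporter of phloem companion cells. *SUC2* had 63.4 RPKM and 62.4 RPKM in replicates 2 and 3 and 17.6 RPKM in replicate 1. All 8 stomatal lineage markers averaged at least 1 RPKM, from 1.81 RPKM for *EPF1* to 18.6 RPKM for *FAMA*. Of 8 root markers, 7 averaged under 1 RPKM, including the endodermal *CASP* genes and the iron transporter *IRT1*, and the exception was the beta-glucosidase *PYK10* at 63.1 RPKM and 66.4 RPKM. The 4 seed storage markers averaged at most 0.0477 RPKM, and 3 of the 4 flower markers averaged under 1 RPKM, the exception being *PI* at 2.03 RPKM. Of 4 shoot meristem markers, 2 averaged at least 1 RPKM, namely *KNAT1* at 6.37 RPKM and *STM* at 5.77 RPKM. The lowest was *WUS* at 0.0800 RPKM.

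Transcript abundance was concentrated in few genes. In the mean of replicates 2 and 3, 17181 genes reached 1 RPKM, 1227 reached 100 RPKM and 53 reached 1000 RPKM, whereas 6844 genes had no exon read in either library. A gene of 1 kb with 0 reads could still have had up to 0.592 RPKM in replicate 2 and 0.513 RPKM in replicate 3 by the limit of 3 reads, which covers counting error only. The median over all genes was 4.34 RPKM. The 53 genes at or above 1000 RPKM, 0.194% of all genes, held 14.9% of the summed RPKM, and the 1174 genes from 100 to 1000 RPKM held 40.9%. Conversely, the 7181 genes between 1 RPKM and 10 RPKM held 5.03%. The 10 most abundant genes held 5.85% in replicate 2 and 5.92% in replicate 3, and the 100 most abundant held 20.3% and 20.6%. For the same 2 sets of genes the shares in replicate 1 were 3.15% and 15.7%. Across all genes, 883 genes made up 50% of the summed RPKM and 7445 genes made up 90%, and in replicate 1 alone 802 genes made up 50%.

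**Figure D1:**
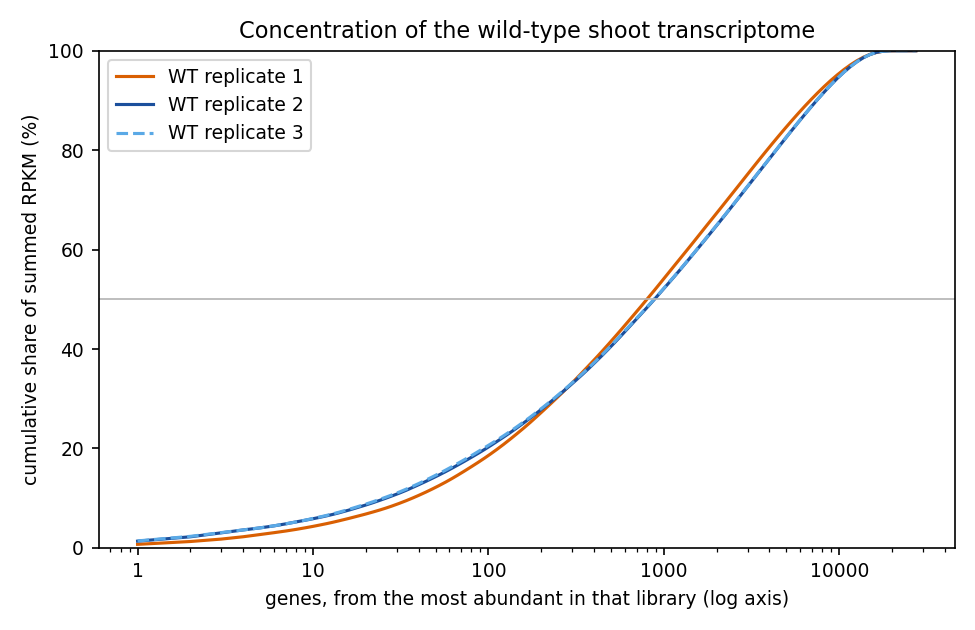
Cumulative share of the summed RPKM (y axis, %) against the number of genes counted from the most abundant in each library (x axis, log scale), 1 line per wild-type library. The lines of replicates 2 and 3 lie on each other and cross 50% at 884 and 880 genes, while replicate 1 starts lower and crosses 50% at 802 genes.

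The 20 most abundant genes were almost all photosynthetic: 12 belonged to the light reactions, 6 to the Calvin cycle, and 2 to neither. First in the order was *RBCS1A* (AT1G67090), a Rubisco small subunit gene, with 9147 RPKM in replicate 2, 9455 RPKM in replicate 3 and 3918 RPKM in replicate 1. In the deposited table, whose genome build is not given in the sources used here, it lies on chromosome 1 from 25048158 to 25049424 with 4 exons. The next was *LHCB1.3* (AT1G29930), an antenna protein of photosystem II also known as *CAB1*, with 5942 RPKM, 6245 RPKM and 3769 RPKM in the same order of libraries, a gene of 1 exon on chromosome 1 from 10478005 to 10479048. *RBCS3B* had 5407 RPKM and 5119 RPKM, *RBCS2B* 3948 RPKM and 3666 RPKM, and *RBCS1B* 2852 RPKM and 2839 RPKM in replicates 2 and 3. These first 5 genes kept the same order in both libraries without overlap of their ranges. Together they held 4.02% of the summed RPKM in each. Only 69.4% of the exon reads of *RBCS1B* mapped uniquely, so its place above the next genes depends on how shared reads were placed.

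Below them the order was less firm. *PSBR*, a small subunit near the oxygen-evolving complex of photosystem II, had 2736 RPKM and 2803 RPKM, *LHCB1.5* had 2649 RPKM and 2704 RPKM, and *RCA*, the Rubisco activase that releases inhibitory sugar phosphates from Rubisco, had 2742 RPKM and 2519 RPKM, so the ranges of *RCA* and both others overlapped. In replicate 1 *PSBR* was instead the most abundant gene of all at 5633 RPKM, and *RCA* had 928 RPKM. The 2 genes of the first 20 outside photosynthesis were *THI1*, a thiazole synthase of thiamine synthesis, with 2230 RPKM and 2422 RPKM, and AT1G09310, which encodes a protein of unknown function, with 1556 RPKM and 1668 RPKM. Replicate 1 was outside the range of replicates 2 and 3 for all 20 genes. It was lower for 16 and higher for 4, namely *PSBR*, *LHCA4*, *PETE2* and AT1G09310. The ratio of replicate 2 to replicate 3 ranged from 0.873 to 1.09 over the same genes.

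**Figure D2:**
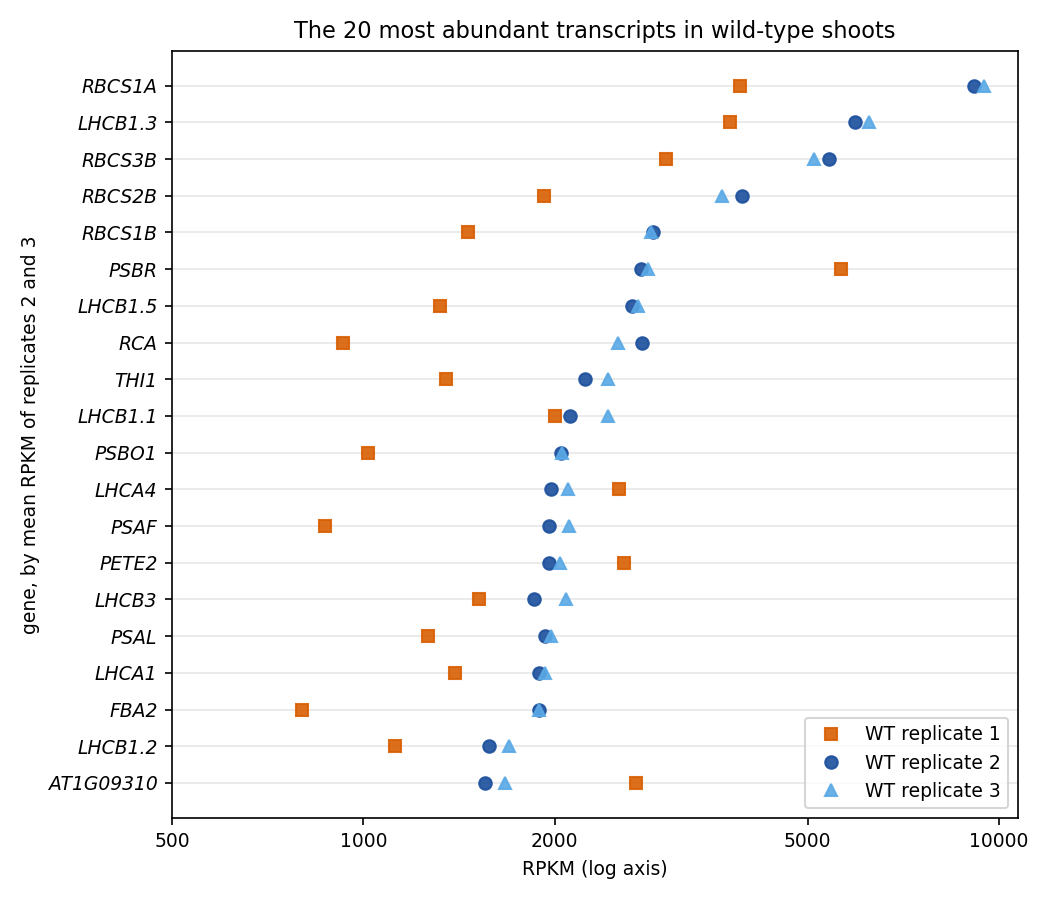
RPKM (x axis, log scale) of the 20 most abundant genes (y axis, ordered by the mean of replicates 2 and 3), with 1 symbol for each of the 3 wild-type libraries. Replicates 2 and 3 lie close together, from 1556 RPKM for AT1G09310 to 9455 RPKM for *RBCS1A*, while replicate 1 lies outside their range for every gene.

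Extending the view to the first 100 genes, 40 were in the lists of the light reactions, 12 in the Calvin cycle list and 6 in the photorespiration list. The lists are not complete: AT2G26500, annotated as a cytochrome b6f subunit and averaging 814 RPKM, is in none of them. By product name, 7 of the 100 were annotated as ribosomal proteins. The others included *FER1*, an iron-storing ferritin of the plastid, at 1378 RPKM, the metallothionein *MT2B* at 1311 RPKM, the lipid transfer protein gene *LP1* at 1178 RPKM, the elongation factor gene *EF1A4* at 1126 RPKM, the cytosolic chaperone gene *HSC70-1* at 1062 RPKM and *GRP7*, an RNA-binding protein under circadian control, at 937 RPKM. The dehydrin gene AT1G54410 had 1504 RPKM and 1674 RPKM in replicates 2 and 3, against 4595 RPKM in replicate 1. The first 100 genes of replicate 2 and of replicate 3 had 97 in common, and 56 of the 100 by the mean were also among the first 100 of replicate 1. Every gene of the 100 rested on at least 1929 exon reads in each of replicates 2 and 3. For 5 genes fewer than 90% of the exon reads mapped uniquely, so that their level depends on how shared reads were placed: *RBCS3B* at 75.1%, *RBCS1B* at 69.4%, *FER1* at 67.7%, *MT2B* at 42.3% and the germin-like gene *GER1* at 0%, whose 959 RPKM consisted of shared reads alone.

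The first 100 genes by RPKM were short. Their median exon length was 1054 bases, compared with 1581 bases for the 17181 genes at or above 1 RPKM and 1361 bases for all genes. Their median number of exons was 4, compared with 6 and 4. Because RPKM divides reads by exon length, the ranking itself favours short genes, and lengths under a ranking by reads were not examined. Of the first 100 genes, chromosomes 1 to 5 carried 32, 15, 19, 16 and 18, and none was mitochondrial. In the same order, these chromosomes carried 7078, 4245, 5437, 4128 and 6318 of all 27328 genes. The 122 mitochondrial genes with an exon length held 0.00398% of the summed RPKM in replicate 2 and 0.00410% in replicate 3. These shares describe the libraries and not the levels in the shoot, since how fully mitochondrial RNA entered the libraries was not tested.

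Among the antenna genes of photosystem II, all 15 reached 1 RPKM, 9 reached 1000 RPKM, and together they held 3.05% and 3.25% of the summed RPKM in replicates 2 and 3 and 1.72% in replicate 1. Their median was 1147 RPKM, against 4.34 RPKM for all genes. The *LHCB1* genes, which encode the major trimeric antenna, ranged from 161 RPKM for *LHCB1.4* to 6094 RPKM for *LHCB1.3*, and *LHCB2.1*, of the same trimers, averaged 1147 RPKM. *LHCB3* averaged 1969 RPKM, and the minor monomeric antenna genes *LHCB5*, *LHCB4.1* and *LHCB6* averaged 1612 RPKM, 1335 RPKM and 1134 RPKM. At the low end were *LHCB7* with 18.9 RPKM and 19.9 RPKM and *LHCB4.3* with 8.74 RPKM and 6.11 RPKM. The antenna genes of photosystem I followed the same division into common and rare members. *LHCA4*, *LHCA1*, *LHCA3* and *LHCA2* averaged 2035 RPKM, 1909 RPKM, 1431 RPKM and 1301 RPKM, whereas *LHCA5* and *LHCA6*, whose products link photosystem I to the NADH dehydrogenase-like complex, averaged 145 RPKM and 68.3 RPKM.

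The 12 subunit genes of photosystem II held 2.03% in each of replicates 2 and 3 and 1.97% in replicate 1, a share that hardly differed between the libraries although single members did. *PSBR* and *PSBTN* had higher values in replicate 1 (5633 RPKM and 2327 RPKM, compared with means of 2769 RPKM and 1325 RPKM), while *PSBO1*, the manganese-stabilizing protein, had a lower one (1016 RPKM, compared with 2050 RPKM). *PSBS*, which triggers the dissipation of excess excitation as heat, averaged 1327 RPKM. *PSBP2* stood far below the others at 2.85 RPKM and 3.98 RPKM, compared with 1579 RPKM and 1541 RPKM for *PSBP1*. The 12 subunit genes of photosystem I held 1.99% and 2.09% in replicates 2 and 3, 1.58% in replicate 1 and 1.14% without scaling by length, and ranged from 282 RPKM for *PSAE2* to 2034 RPKM for *PSAF*. In the list of electron carriers and ATP synthase subunits, plastocyanin (*PETE2*) averaged 1998 RPKM and ferredoxin (*FD2*) 1609 RPKM, the Rieske protein of the cytochrome b6f complex (*PETC*) averaged 680 RPKM, and the cyclic electron flow genes *PGRL1A* and *PGR5* averaged 362 RPKM and 217 RPKM. *PGR5* had 666 RPKM in replicate 1. Taken as a single list, the 59 genes of the light reactions held 9.46% in replicate 2, 9.80% in replicate 3 and 7.27% in replicate 1.

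The Calvin cycle held 5.20% and 5.08% of the summed RPKM in replicates 2 and 3 from 24 genes, and 2.51% in replicate 1. The 4 *RBCS* genes alone accounted for 3.14% and 3.10%, and for 1.28% in replicate 1. Beyond Rubisco and *RCA*, the order was *FBA2*, a plastid aldolase, at 1891 RPKM, then *GAPB* at 1180 RPKM, *GAPA1* at 1037 RPKM and *PRK*, the phosphoribulokinase that regenerates the carbon dioxide acceptor, at 1036 RPKM. In replicates 2 and 3 the last 3 ranged over 1161 to 1199 RPKM, 953 to 1122 RPKM and 1018 to 1053 RPKM. Thus *GAPA1* and *PRK* could not be ordered there. Replicate 1 had another order, with *GAPA1* at 1080.5 RPKM, *FBA2* at 801 RPKM, *GAPB* at 718 RPKM and *PRK* at 603 RPKM. *SBPASE* averaged 625 RPKM and *CFBP1* 305 RPKM, the enzymes that remove a phosphate at the committed steps of regeneration. *CP12-1* and *CP12-2*, small proteins that hold GAPDH and PRK in an inactive complex in darkness, averaged 722 RPKM and 461 RPKM, and were at 1302 RPKM and 760 RPKM in replicate 1. *TKL2* and *CP12-3* were the lowest members at 12.6 RPKM and 9.05 RPKM.

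**Figure D3:**
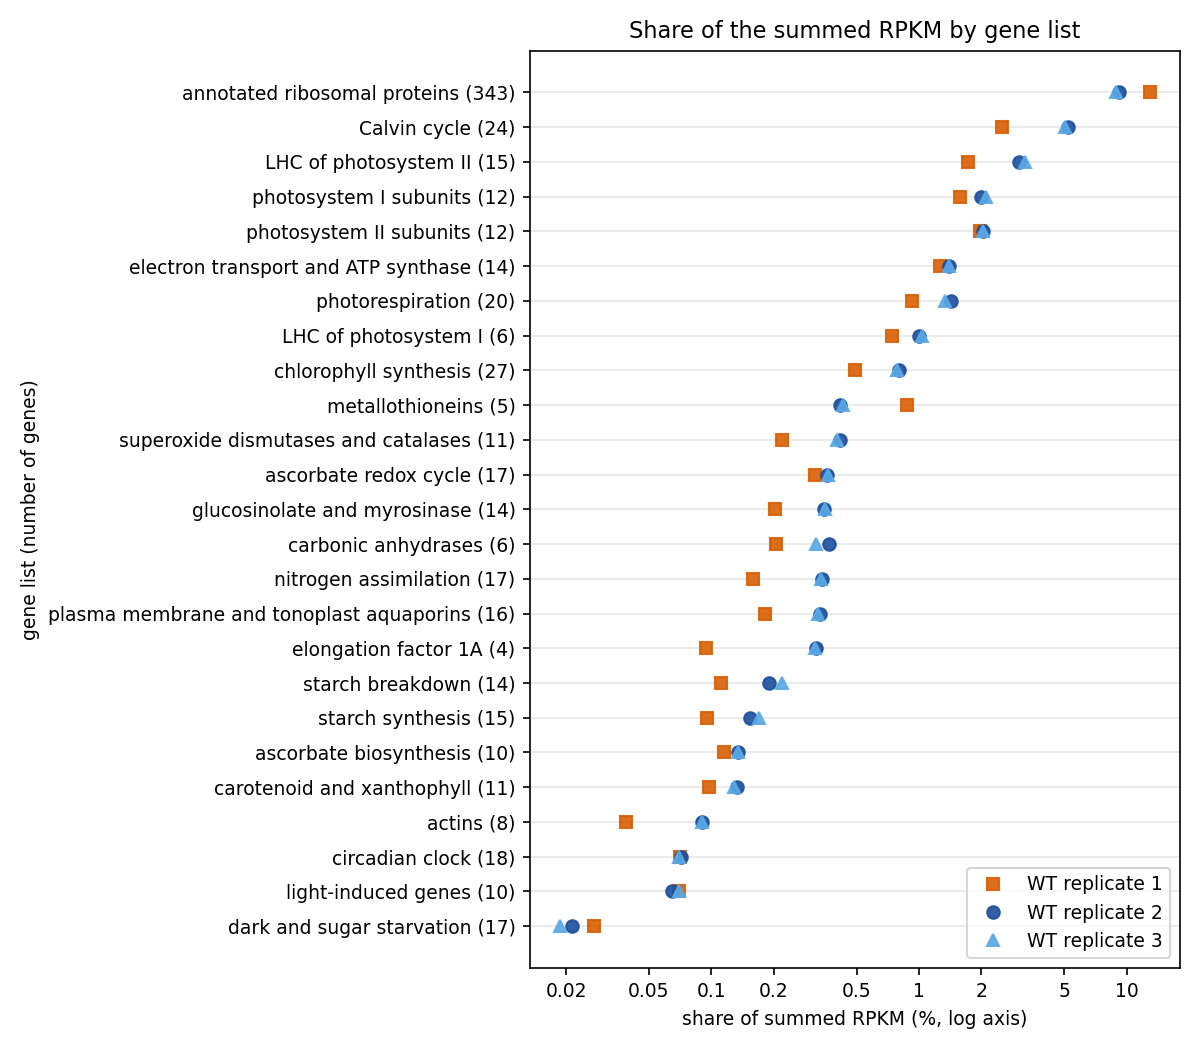
Share of the summed RPKM (x axis, %, log scale) for each gene list (y axis, number of genes in brackets), with 1 symbol per wild-type library. The annotated ribosomal proteins and the Calvin cycle have the highest shares, the dark and sugar starvation genes the lowest at 0.0212% and 0.0186% in replicates 2 and 3, and replicate 1 lies apart for most lists, for the Calvin cycle at 2.51%, against 5.20% and 5.08%.

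Photorespiration genes, 20 in number, held 1.42% and 1.33% in replicates 2 and 3 and 0.926% in replicate 1. The peroxisomal aminotransferase *AGT1* with 1327 RPKM and 1287 RPKM and catalase *CAT2* with 1330 RPKM and 1168 RPKM were at the top and could not be ordered. They were followed by *GLDP1*, the P-protein of glycine decarboxylase, with 1049 RPKM and 1023 RPKM. *AGT1* hardly differed in replicate 1 (1326 RPKM), whereas *GLDP1* had 243 RPKM there. The exon lengths were 3478 bases for *GLDP1* and 1540 bases for *AGT1*. Glycolate oxidase was represented by *GOX1* at 923 RPKM and 902 RPKM and by *GOX2* at 507 RPKM and 452 RPKM, while *GOX3* had 5 exon reads in replicate 2 and 0 in replicate 3. The transporter *PLGG1*, which exchanges glycolate and glycerate across the envelope, averaged 158 RPKM, and *GLYK*, the kinase that closes the cycle, averaged 96.2 RPKM.

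Chlorophyll synthesis comprised 27 genes, of which 26 reached 1 RPKM, and held 0.797% and 0.784% in replicates 2 and 3 and 0.494% in replicate 1. *CRD1*, a subunit of the cyclase that forms the fifth ring, was far above the rest at 1286 RPKM, or 23.9% of the list. *CHLP*, which reduces the geranylgeranyl chain, averaged 753 RPKM, and *CHLH*, the large subunit of magnesium chelatase, averaged 408 RPKM. The chelatase subunit gene *CHLI1* averaged 354 RPKM and *CHLD* 101 RPKM. *HEMA1*, the glutamyl-tRNA reductase at the entry of the pathway, had 249 RPKM and 251 RPKM, and its paralogue *HEMA2* averaged 9.10 RPKM. *HEMB2* had no read in any of the 3 libraries. Carotenoid genes were lower than these, with a median of 60.4 RPKM over 11 genes and the zeaxanthin epoxidase gene *ZEP* highest at 201 RPKM and 186 RPKM. The violaxanthin de-epoxidase gene *VDE*, which runs the reverse reaction in strong light, averaged 60.4 RPKM.

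The ascorbate synthesis list includes the gene mutated in *vtc2* but not that mutated in *vtc3*. Its genes held 0.134% of the summed RPKM in replicate 2 and in replicate 3 and 0.115% in replicate 1. All 10 reached 1 RPKM, with a median of 48.4 RPKM. *VTC2*, the GDP-L-galactose phosphorylase of the first committed step, had 368 RPKM in both libraries and 249 RPKM in replicate 1, and made up 40.4% of the list. *GME*, the epimerase before it, had 223 RPKM and 209 RPKM, and 266 RPKM in replicate 1, so that the order of *VTC2* and *GME* depended on the library. The enzymes after *VTC2* were present at lower levels: *VTC4* at 44.3 RPKM, *L-GalDH* at 28.6 RPKM and 25.4 RPKM and the mitochondrial *GLDH*, which makes ascorbate, at 18.9 RPKM. Upstream, *PMM* averaged 80.9 RPKM, and *PMI1* 52.6 RPKM, *VTC1* had 60.4 RPKM and 77.7 RPKM, and *PMI2* was the lowest at 3.28 RPKM.

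The 17 genes of the ascorbate redox cycle held 0.359% and 0.364% of the summed RPKM in replicates 2 and 3. Their share was 0.317% in replicate 1, and their median was 119 RPKM. The 7 ascorbate peroxidase genes, which oxidize ascorbate, held 0.184% and 0.185% in replicates 2 and 3. Cytosolic *APX1*, which reduces hydrogen peroxide with ascorbate, averaged 754 RPKM and held 30.7% of the list. *DHAR1*, which restores ascorbate with glutathione, had 214 RPKM and 252 RPKM, and 328 RPKM in replicate 1. The monodehydroascorbate reductase genes *MDAR1* and *MDAR4* averaged 194 RPKM and 172 RPKM, and *MDAR6*, of the chloroplast and mitochondrion, averaged 48.7 RPKM. *GR1* and *GR2* could not be ordered, with 151 RPKM and 142 RPKM for *GR1* and 151 RPKM and 159 RPKM for *GR2*. *APX2*, a gene known for induction by excess light, had 0 and 1 exon reads in replicates 2 and 3, and *MDAR3* had none. Among superoxide dismutases the iron enzyme *FSD1* was highest at 417 RPKM and 410 RPKM, ahead of the manganese enzyme *MSD1* at 177 RPKM and 182 RPKM and the plastid copper-zinc enzyme *CSD2* at 156 RPKM and 174 RPKM.

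The genes on the light-induced, dark and sugar starvation, and clock lists were at modest levels. These lists do not hold all genes that respond to light, sugar or time of day, and *GRP7* is in none of them. All 10 light-induced genes reached 1 RPKM and none reached 100 RPKM as a mean. Chalcone synthase (*CHS*) had 85.3 RPKM and 91.0 RPKM, compared with 30.6 RPKM in replicate 1. *ELIP1*, an early light-induced chlorophyll-binding protein, varied between 70.1 RPKM and 105 RPKM in replicates 2 and 3 and had 103 RPKM in replicate 1. The transcription factor genes *HYH* and *HY5* averaged 47.4 RPKM and 24.5 RPKM and were at 134 RPKM and 60.2 RPKM in replicate 1. Of 17 genes known to accumulate in darkness or sugar starvation, 15 reached 1 RPKM, and the median was 4.41 RPKM, against 4.34 RPKM for all genes. *SEN1* was highest with 40.9 RPKM and 39.8 RPKM. The asparagine synthetase gene *ASN1*, a classical dark-induced gene, had 0.797 RPKM and 1.38 RPKM, and the beta-glucosidase gene *DIN2* had no read in replicate 2 or 3.

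All 18 clock genes reached 1 RPKM, and together they held 0.0713% and 0.0700% in replicates 2 and 3 and 0.0704% in replicate 1, or 0.115% without scaling by length. The levels spanned 3.38 RPKM for *LHY* to 58.6 RPKM for *PRR7*. *LHY* and *CCA1*, close homologues that act together in the morning, stood at 3.17 RPKM and 3.59 RPKM for *LHY* and at 34.5 RPKM and 30.3 RPKM for *CCA1*. *PRR7*, *LNK1* and *LNK2*, which act during the day, averaged 58.6 RPKM, 57.8 RPKM and 48.8 RPKM, and the ranges of *PRR7* (56.8 to 60.3 RPKM) and *LNK1* (57.5 to 58.2 RPKM) overlapped. The evening gene *GI* had 36.6 RPKM and 38.5 RPKM, with 13.6 RPKM in replicate 1, and *TOC1* had 22.4 RPKM and 24.0 RPKM.

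Starch synthesis genes (15) held 0.154% and 0.169% in replicates 2 and 3 and 0.0955% in replicate 1, and starch breakdown genes (14) held 0.189% and 0.219%, and 0.111% in replicate 1. Without scaling by length the shares were 0.253% for synthesis and 0.396% for breakdown. *ADG1*, the small subunit of ADP-glucose pyrophosphorylase, had 210 RPKM and 239 RPKM, and *APL1*, its main leaf large subunit, had 145 RPKM and 147 RPKM. Among the breakdown genes, *BAM3*, a plastid beta-amylase, with 315 RPKM and 322 RPKM and the cytosolic phosphorylase *PHS2* with 281 RPKM and 330 RPKM were at the top and could not be ordered. Several of these genes were higher in replicate 3 than in replicate 2, *ISA3* with 74.9 RPKM and 44.2 RPKM and *SEX4* with 97.4 RPKM and 59.6 RPKM. Nitrogen assimilation genes (17) held 0.339% and 0.336% in replicates 2 and 3, 0.159% in replicate 1, and 0.690% without scaling by length. Among them, plastid glutamine synthetase (*GLN2*) and ferredoxin-dependent glutamate synthase (*GLU1*) averaged 562 RPKM and 456 RPKM, and nitrate reductase (*NIA2*) and nitrite reductase (*NIR1*) averaged 400.1 RPKM and 272 RPKM. Glucosinolate and myrosinase genes were led by the epithiospecifier modifier *ESM1* at 653 RPKM and 588 RPKM and the myrosinase *TGG1* at 606 RPKM and 588 RPKM.

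Genes annotated as ribosomal proteins of any compartment, a list added after the abundant genes had been seen, numbered 343 and held 9.14% and 8.90% of the summed RPKM in replicates 2 and 3 and 13.0% in replicate 1. Without scaling by length, their share was 5.56%. Their share came from many genes at intermediate levels: 188 reached 100 RPKM, 1 reached 1000 RPKM, and the leading gene, AT5G20290 for a ribosomal protein of the S8e family, held 1.68% of the list. In replicate 1 the median ribosomal gene was 0.65 higher on the log2(RPKM + 1) scale than in the mean of the others, and the median of the light reactions list was 0.37 lower (a log2 difference of -0.37). The median exon length was 827 bases for the ribosomal list. This list was drawn by product name, so it also holds genes named for elongation factors, such as *LOS1* and AT5G19510. Metallothioneins, cysteine-rich metal-binding proteins, likewise had 0.876% in replicate 1 and 0.418% and 0.433% in replicates 2 and 3, and 0.171% without scaling by length. *MT1A* had no read in any of the 3 libraries, whereas *MT2B*, *MT2A* and *MT3* averaged 1311 RPKM, 793 RPKM and 774 RPKM.

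The division of a family's transcripts between paralogues was measured as each member's share of the family's summed RPKM, in 27 families with 93 genes. Intervals are exact binomial (Clopper-Pearson) 95% intervals on the reads, converted to shares per exon length, and they cover counting error only. A single member held over 50% in 23 families and over 90% in 3: plastocyanin *PETE2* (93.9%), nitrate reductase *NIA2* (93.0%) and *VTC2* (91.7% and 92.3% in replicates 2 and 3). The same member led in replicates 2 and 3 in all 27 families, and the intervals of its share in these libraries overlapped in 19. In replicate 1 the same member led in 24 families, and the interval overlapped those of both other libraries in 5. The exceptions in the leading member were *CSD1* in place of *CSD2*, *PORC* in place of *PORB* and *PIP2;1* in place of *PIP1;2*.

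**Figure D4:**
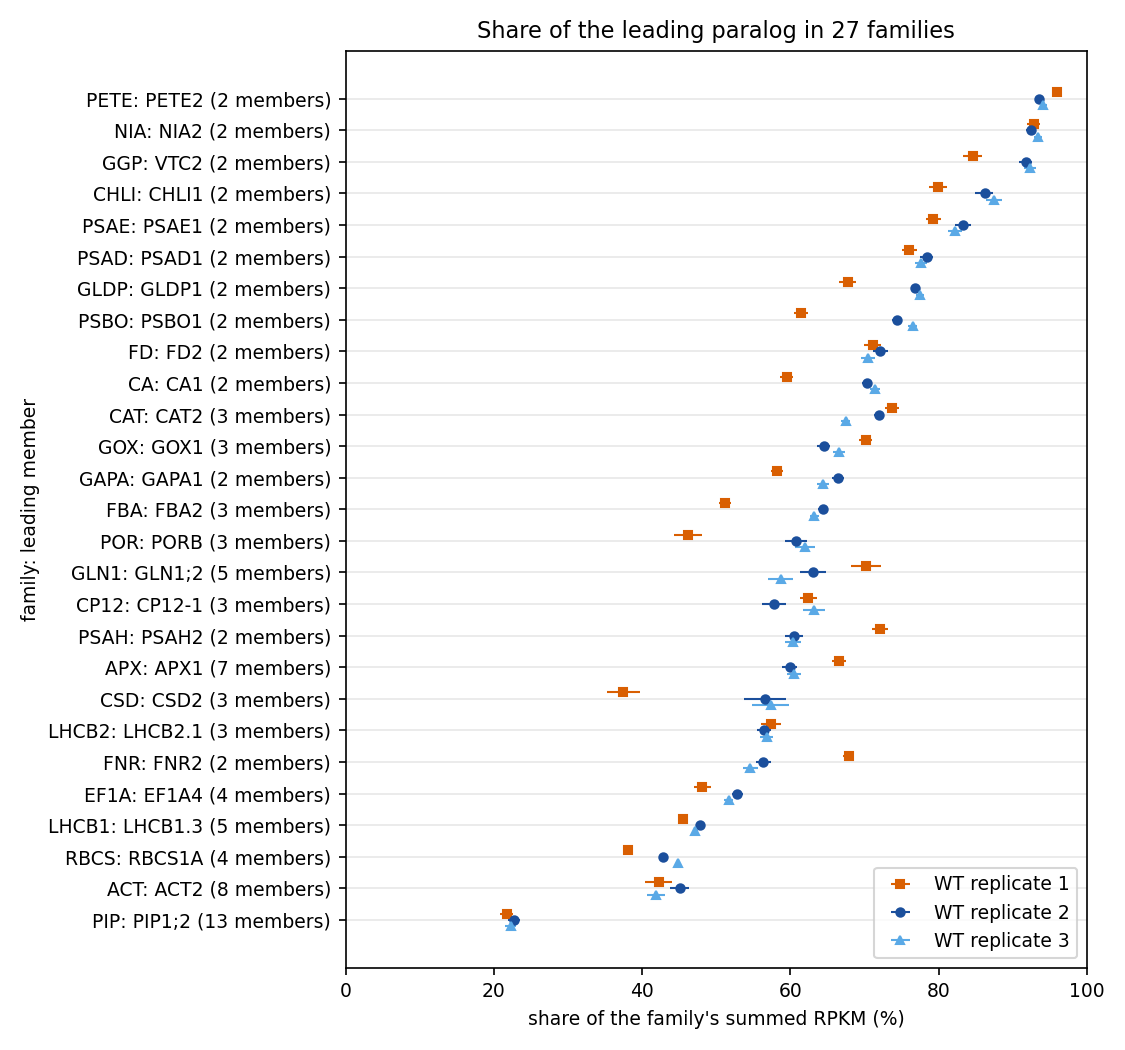
Share of the family's summed RPKM held by its leading member (x axis, %) in 27 families (y axis, with the leading gene and the number of members), 1 symbol per wild-type library with its exact binomial 95% interval. The shares run from 22.5% for *PIP1;2* among 13 aquaporins to 93.9% for *PETE2* among 2 plastocyanins, and replicate 1 lies away from the other libraries in many families, among them *CSD*, *POR* and *FBA*.

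The *RBCS* family shows how far such shares can be read. *RBCS1B*, *RBCS2B* and *RBCS3B* lie side by side on chromosome 5, with 2264 bases between *RBCS3B* and *RBCS2B* and 1095 bases between *RBCS2B* and *RBCS1B* in the TAIR10.1 assembly, and *RBCS1A* lies alone on chromosome 1. The coding sequences of *RBCS1B* and *RBCS3B* share a stretch of 230 identical bases, compared with 89 between *RBCS1B* and *RBCS2B*, 96 between *RBCS2B* and *RBCS3B* and at most 67 between *RBCS1A* and any of them. The following 120 coding bases (RefSeq, TAIR10.1, 5′ to 3′) are shown because they lie within the stretch from which reads of these genes must be told apart. Capitals mark the 8 positions at which the 4 genes are not all alike.
RBCS1A, chr1:25048498-25048617, minus strand: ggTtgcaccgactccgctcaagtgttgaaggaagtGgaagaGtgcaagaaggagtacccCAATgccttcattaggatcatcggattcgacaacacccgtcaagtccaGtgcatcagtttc
RBCS1B, chr5:15384386-15384505, minus strand: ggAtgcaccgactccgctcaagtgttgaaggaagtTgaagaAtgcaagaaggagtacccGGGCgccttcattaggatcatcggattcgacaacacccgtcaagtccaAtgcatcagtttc
RBCS2B, chr5:15381239-15381358, minus strand: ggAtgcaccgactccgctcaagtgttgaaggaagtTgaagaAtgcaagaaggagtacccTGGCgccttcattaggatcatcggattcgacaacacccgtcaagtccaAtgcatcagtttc
RBCS3B, chr5:15377537-15377656, minus strand: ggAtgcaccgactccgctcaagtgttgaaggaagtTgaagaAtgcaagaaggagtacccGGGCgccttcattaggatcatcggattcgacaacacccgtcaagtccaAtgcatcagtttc

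In this window *RBCS1A* differs from each of the others at 8 positions, *RBCS2B* differs from *RBCS1B* and from *RBCS3B* at 1 position, and *RBCS1B* and *RBCS3B* do not differ. In the same order, the share of exon reads that mapped uniquely was 100% for *RBCS1A*, 98.0% for *RBCS2B*, and 69.4% and 75.1% for *RBCS1B* and *RBCS3B*. By all exon reads, *RBCS1A* held 42.8% (42.5 to 43.1%) of the family in replicate 2, 44.9% in replicate 3 and 38.1% in replicate 1. *RBCS3B* held 25.3% and 24.3% in replicates 2 and 3, *RBCS2B* 18.5% and 17.4%, and *RBCS1B* 13.4% and 13.5%. Counted by uniquely mapped reads alone, the share of *RBCS1A* was 49.1% as a mean of replicates 2 and 3, because reads shared by the chromosome 5 genes dropped out.

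The *LHCB1* genes are also in part a tandem group, with 1153 bases between *LHCB1.2* and *LHCB1.1* and 1915 bases between *LHCB1.1* and *LHCB1.3* on chromosome 1 in TAIR10.1. The coding sequences of these 3 genes are 95.6% to 96.4% identical, but no identical stretch between them exceeds 119 bases, and 99.8% of the reads of *LHCB1.1* and *LHCB1.3* mapped uniquely. *LHCB1.3* held 47.8% (47.4 to 48.2%) of the family in replicate 2 and 47.1% in replicate 3. The tandem neighbours *LHCB1.1* and *LHCB1.2* held 17.0% and 12.7% in replicate 2, fewer than *LHCB1.3*, and *LHCB1.5* on chromosome 2 held 21.3%. *LHCB1.4* had 143 RPKM and 179 RPKM, or 1.15% of the family in replicate 2. In replicate 1 *LHCB1.1* (24.2%) stood above *LHCB1.5* (15.9%), the reverse of the other libraries.

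Elongation factor 1A marked the limit of such an analysis. *EF1A4* held 52.9% and 51.7% in replicates 2 and 3, with 99.99% of its reads unique. *EF1A1* and *EF1A3* differ at 6 of 1350 coding bases and share 1061 bases without a difference, and 35.8% and 39.5% of their reads mapped uniquely. Their shares of 20.8% and 11.7% therefore rest on the placement of shared reads, and by unique reads alone *EF1A4* held 68.9%. *PIP2;2* and *PIP2;3* (90.3% and 85.5% of reads unique) and *LHCB2.1* and *LHCB2.2* (94.8% and 94.5%) shared fewer reads.

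Several antioxidant families have members in different compartments. *APX1* of the cytosol held 59.9% and 60.5% of 7 ascorbate peroxidase genes in replicates 2 and 3. Peroxisomal *APX3* held 18.2% and 17.8%, and the plastid genes *sAPX* and *tAPX*, of the stroma and thylakoid, held 16.4% and 2.98% in replicate 2. *CAT2* held 72.0% and 67.5% of the catalases and *CAT3* 26.9% and 31.1%, a shift between the libraries larger than counting error (*CAT2* intervals in replicate 2 of 71.3 to 72.6%). *GOX1* held 64.5% and 66.6%. The plastid copper-zinc dismutase *CSD2* held 56.6% and 57.3% in replicates 2 and 3 and 37.5% in replicate 1, where cytosolic *CSD1* had 42.8%.

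Protochlorophyllide reductases differ in how they respond to light, *PORA* being the form of dark-grown seedlings. *PORB* held 60.8% and 61.9% in replicates 2 and 3, *PORC* 39.0% and 37.9%, and *PORA* 0.218% and 0.162%, from 10 and 9 exon reads. In replicate 1 *PORC* held 53.6% and *PORB* 46.2%. For GDP-L-galactose phosphorylase, *VTC2* held 91.7% (90.8 to 92.6%) in replicate 2, 92.3% in replicate 3 and 84.6% in replicate 1, and *VTC5* the remainder, at 33.2 RPKM, 30.6 RPKM and 45.4 RPKM. Among other pairs, *PSBO1* held 74.4% and 76.5%, *PSAD1* 78.4% and 77.7% and *PSAE1* 83.3% and 82.2% in replicates 2 and 3. In the same libraries *PSAH2* held 60.5% and 60.4%, *FD2* 72.2% and 70.5%, *FNR2* 56.4% and 54.6%, and *GLDP1* 76.8% and 77.5%. *CA1* held 70.3% and 71.4% of the pair with *CA2*, and *CHLI1* 86.2% and 87.5% of the pair with *CHLI2*. Among 3 plastid aldolases *FBA2* held 64.4% and 63.2%, and in replicate 1 *FBA2* and *FBA1* were nearer to each other at 51.2% and 45.6%.

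Cytosolic glutamine synthetase was dominated by *GLN1;2*, with 63.1% and 58.7%, while *GLN1;1* held 24.2% and 27.8% and *GLN1;5* rested on 3 exon reads in each library. Plasma membrane aquaporins had the lowest leading share of the 27 families, *PIP1;2* having 22.7% and 22.3%, *PIP2;1* 21.7% and 21.5% and *PIP2;7* 17.0% and 16.2%. In replicate 1 *PIP2;1* had 25.7% and *PIP1;2* 21.7%. Of 8 actin genes, *ACT2*, *ACT7* and *ACT8*, the vegetative actins, held 45.0%, 35.5% and 11.5% in replicate 2, and the reproductive actins ranged widely. *ACT3* had 19.4 RPKM and 23.2 RPKM, *ACT1* 18.0 RPKM and 19.5 RPKM and *ACT11* 10.9 RPKM and 10.2 RPKM in replicates 2 and 3, whereas *ACT4* and *ACT12* had no read in any of the 3 libraries.

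Upstream sequence was examined for the motifs known from light-regulated and translation genes, in the 250 bases before the RefSeq gene start in TAIR10.1, on both strands. The G-box, CACGTG, was found in 20.3% of 59 light reactions genes and in 14.0% of the 100 most abundant genes, against 6.58% of all 26713 windows and 7.53% of the 17101 windows of genes at or above 1 RPKM. The I-box core, GATAAG, was found in 25.4% and 17.0%, against 12.2% of all windows and 12.3% of those at or above 1 RPKM. The site II motif GGCCCA was present in 45.5% of 343 genes annotated as ribosomal proteins and 16.9% of light reactions genes. It was found in 13.9% of all windows and 18.0% of those at or above 1 RPKM. The telo-box AAACCCTA was present in 16.0% and 0%, against 4.44% and 3.66% in the same backgrounds. The evening element AAATATCT was found in 7.00% of the 100 most abundant genes, against 4.84% of all windows and 5.06% of those at or above 1 RPKM, and TATAAA in 46.0%, against 47.7% and 45.4%. None of these motifs contains another. These matches describe letters, not binding, and RefSeq gene starts equalled those of the deposited table for 10117 of 28009 matched genes, so a window can begin away from the start of transcription. *RBCS2B*, at 3948 RPKM and 3666 RPKM, is shown because its window held a G-box beside 3 I-box cores (capitals mark both motifs on either strand).
RBCS2B, chr5:15382072-15382321, minus strand: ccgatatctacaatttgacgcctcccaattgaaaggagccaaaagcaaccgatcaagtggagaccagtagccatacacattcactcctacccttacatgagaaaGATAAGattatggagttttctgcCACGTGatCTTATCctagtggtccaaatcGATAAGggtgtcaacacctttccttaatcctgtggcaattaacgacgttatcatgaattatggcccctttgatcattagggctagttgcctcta

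The G-box in this window begins 123 bases before the gene start and the I-box cores begin 146, 115 and 94 bases before it.

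The difference of replicate 1 from the other libraries followed exon length. For the 276 genes at or above 1 RPKM with under 500 bases of exon, the median log2 ratio of (RPKM + 1) in replicate 1 over the mean of replicates 2 and 3 was 1.01. It was 0.86 for the 3278 genes of the next class, from 500 bases, 0.27 from 1000 bases, -0.07 from 1500 bases, -0.29 from 2000 bases and -0.60 for 1573 genes of 3000 bases and over. The same medians for replicate 2 over replicate 3 lay between -0.01 and 0.04. Over 17181 genes, which share libraries, annotation and depth, the correlation of the log2 ratio with log2 exon length was -0.57. It was -0.01 for replicate 2 over replicate 3. Each library was also set against the median of the other libraries of the series. Its deviation correlated with log2 exon length at -0.56 in replicate 1, 0.19 in replicate 2 and 0.21 in replicate 3. The mutant libraries lay between -0.05 and 0.15. Replicates 2 and 3 thus shared a smaller deviation in the other direction, which their mean carries. More than 2-fold higher values in replicate 1 were found for 2231 genes and more than 2-fold lower values for 1040 genes, compared with 110 genes that differed by as much between replicates 2 and 3. Introns took 1.62% of the gene reads of replicate 1 and 1.12% of those of both others. The part of RNA quality or library preparation in this was not tested.

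**Figure D5:**
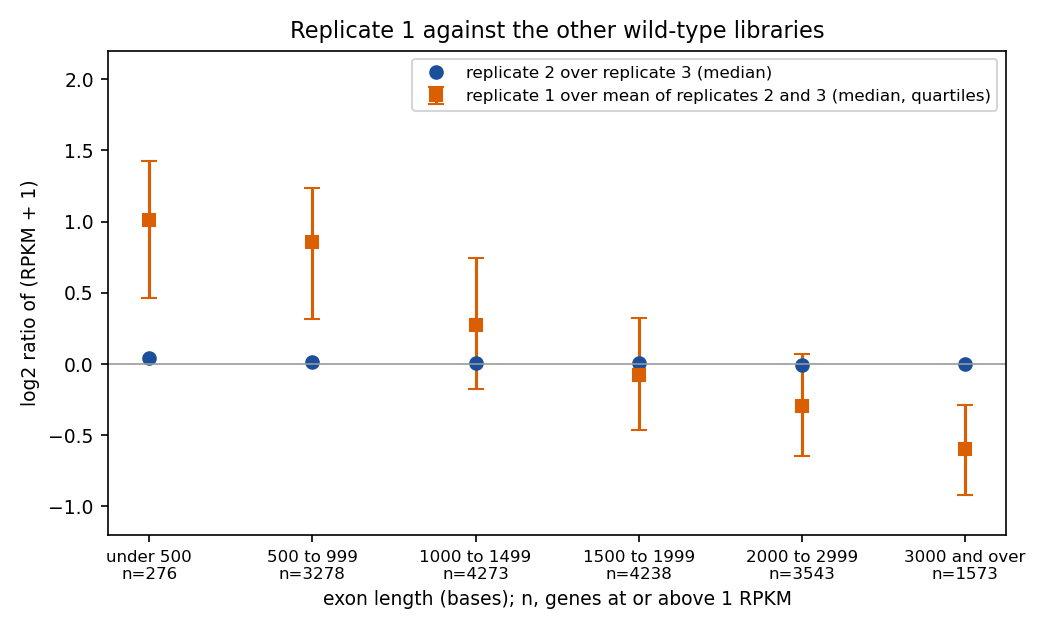
Median log2 ratio of (RPKM + 1) (y axis) by exon length class (x axis, bases, with the number of genes at or above 1 RPKM), for replicate 1 over the mean of replicates 2 and 3 (squares, bars from the lower to the upper quartile) and for replicate 2 over replicate 3 (circles). The squares go down from 1.01 in the shortest class to -0.60 in the longest, while the circles stay between -0.01 and 0.04.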

How the data were processed

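Total RNA of shoots was sequenced from TruSeq libraries on a MiSeq, and reads were mapped and counted by the authors in CLC Genomics Workbench. The genome build, annotation version, mapping settings and use of strand are not given in the sources used here. The deposited table gave, for each gene and sample, counts of exon, intron, exon-exon and uniquely mapped exon reads, and the RPKM that the authors computed as exon reads scaled by exon length and by total gene reads, which was checked for every gene. Exon length, exon number and position were taken from the deposited table as annotation (entered as score, not as measurements). Of 171 columns that belong to single samples, 142 were not used. Columns of means, ranges, fold changes and tests made by the authors were not used either.

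Genes with exon length 0 were left out of levels. Shares were computed per library and averaged over replicates 2 and 3, with Python 3.11.15, pandas and scipy. Depth was 5070225 to 5853283 gene reads per WT library. Genes named are the first 20 by mean RPKM, members of 24 lists and 27 families, and the 5 most changed in each direction in replicate 1, and other names among the first 100 genes were chosen after their values were seen. These members and lists were chosen with earlier results of these data known, and the ribosomal list after the most abundant genes had been seen. No test was made, since all libraries are of a single group. Sequences are from RefSeq TAIR10.1, to which 28009 of 28642 gene identifiers matched. Intervals were tested on simulated data. Alternatives were all 3 libraries, each replicate left out, uniquely mapped reads, reads without length scaling, longer genes alone, other thresholds and pseudocounts.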

Additional observations from a re-analysis of the deposited data

Results flagged for a closer look

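Reads on loci without annotated exons were not part of the levels above, since these loci have an RPKM of 0 by construction. In WT replicates 2 and 3 they took 0.151% of the gene reads. Of 1314 such loci, 237 had reads in replicate 2 with 8034 reads in all, 245 had reads in replicate 3 with 8499 reads, and 262 had reads in replicate 1 with 15831 reads, or 0.290% of its gene reads. The highest was AT2G01010, annotated as ribosomal RNA, with 1879 and 1818 reads in replicates 2 and 3 and 3292 in replicate 1. The non-coding RNA gene *GUT15* had 730 and 722 reads in replicates 2 and 3 and 1374 in replicate 1.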

How the results depend on the processing

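Each share was recomputed under other settings and compared with the SD over the 3 wild-type libraries, a wide yardstick because replicate 1 is part of it. Of 350 values, 325 stayed within it (gene counts within 1.5 times). Shares from all 3 libraries, or with replicate 2 or 3 left out, could hardly leave an SD of the same libraries. In each of these settings 56 of 56 values stayed within it. No sign was reversed, but only the log2 ratios have a sign to reverse. The limit of at least 500 bases removed no family member, so the paralogue shares did not change. Without scaling by length, the share was 6.77% for the light reactions, 1.90% for photorespiration, 0.985% for chlorophyll synthesis, 0.161% for ascorbate biosynthesis and 0.115% for the clock. The lists that moved by over 1.5 times under this setting were nitrogen assimilation (0.690%, against 0.337%), starch breakdown (0.396%, against 0.204%), photosystem I subunits (1.14%, against 2.04%), ribosomal proteins (5.56%, against 9.02%), starch synthesis (0.253%, against 0.162%), metallothioneins (0.171%, against 0.425%) and the clock. Restricted to genes of at least 500 bases, the clock share was 0.0715%. By uniquely mapped reads, *RBCS1A* held 49.1% of its family. With replicate 2 or replicate 3 left out, so that replicate 1 entered the mean, 17380 to 17386 genes reached 1 RPKM, the first 10 genes held 4.76 to 4.80%, the first 100 held 18.6 to 18.8%, the light reactions 8.36 to 8.53% and the Calvin cycle 3.79 to 3.86%. In the same means, *VTC2* held 88.2 to 88.5% and *PORB* 53.5 to 54.1% of their families. A threshold of 0.5 RPKM or at least 4 exon reads gave gene counts within 1.5 times. Without a filter on low values, the median log2 ratio of replicate 1 was 0 for exon lengths under 500 bases and 0.24 for the class from 500 bases. No paired analysis was possible because no groups were compared. Depth limits genes under about 0.5 RPKM, where 3 reads are not exceeded on 1 kb.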

Other observations

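The genes that differed most between replicate 1 and the mean of replicates 2 and 3 were taken from the 11563 with at least 50 exon reads in each library, with no correction for exon length. *PRP4*, a proline-rich cell wall protein, had 71.5 RPKM in replicate 1 and 435 RPKM and 488 RPKM in replicates 2 and 3. *FLA8*, a fasciclin-like arabinogalactan protein, had 29.4 RPKM, against 167 RPKM and 170 RPKM. The leucine-rich repeat genes AT3G24480 and AT5G01890 had 6.18 RPKM and 2.62 RPKM in replicate 1, and the fifth gene was *GLDP1*, with 3478 bases of exon. Among those higher in replicate 1, the small heat-shock protein gene AT2G29500 had 75.7 RPKM, against 14.9 RPKM and 15.3 RPKM, the knottin-like gene AT2G43530 had 172 RPKM, against 37.8 RPKM and 38.9 RPKM, and the glutathione transferase gene *GSTF6* had 38.1 RPKM, against 9.15 RPKM and 9.98 RPKM. *MAPR2* had 56.6 RPKM, against 17.6 RPKM and 11.2 RPKM, but only 0.682% of its exon reads in replicates 2 and 3 mapped uniquely, so its level rests on the placement of shared reads. AT3G47295 had 92.9 RPKM, against 26.6 RPKM and 21.9 RPKM. These values have no replicate within replicate 1, and whether the plants, the RNA or the library differed was not tested.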
